A study of Mus musculus with 12 samples.

Results

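Overexpression of lncRNA8276, a long noncoding RNA, was compared here with all 6 control libraries of the same experiment in C18-4 cells, an immortalized mouse line established from spermatogonia. Of 12 libraries of total RNA, 9 entered the comparison: 3 of 8276OV (virus for overexpression of lncRNA8276), 3 of 3NC and 3 of 5NC. The other 3 libraries, 8276KD (virus for inhibition of the same RNA), are given beside them where they help to read a value. All groups share the cell line, the strain label IRC mouse and treatment with virus. The labels name no vector, dose, time after infection or clone, and do not spell out 3NC and 5NC. The design text lists 5NC next to the overexpression group and 3NC next to the knockdown group, but no label assigns a control to either. The comparison was therefore centred on genes whose direction is the same whichever control is taken: genes for which all 3 8276OV values lay above, or all below, all 6 control values. These genes are called set apart. There were 6425 of them among 11360 genes tested, and the table holds 17576 genes. The distance between the nearest 8276OV and control libraries is called the gap and is given on the log2(value + 1) scale.

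Spermatogonial stem cells sustain sperm production by balancing self-renewal with differentiation. In the testis they respond to glial cell line-derived neurotrophic factor (GDNF), which acts through its receptors GFRA1 and RET on RAS, ERK and AKT signalling, and to fibroblast growth factors. Long noncoding RNAs are transcripts without a coding function that can act on chromatin, on transcription or on other RNAs.

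Between 10929 and 11165 genes reached a value of 1 in each of the 12 libraries, and the steps between low values implied a depth of about 12 to 13.4 M fragments per library. Pearson's r of log2(value + 1) was 0.993 to 0.998 between libraries of a group and 0.951 to 0.988 between groups. How much lncRNA8276 the libraries hold was not analysed here, and the overexpression label is unchecked in that respect. Separate cultures are not mentioned in the labels, and the p-values therefore cover the spread among these libraries alone, which may be technical. Values were read as FPKM, which is fragments scaled by transcript length and library total. In bulk RNA, fewer cells of a type and less RNA per cell cannot be told apart.

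Of the 11360 genes tested, 2686 were set apart with higher values in 8276OV (23.6%) and 3739 with lower values (32.9%). A limma fit of the 3 8276OV libraries against the 6 control libraries called 2739 genes higher (24.1%) and 3931 lower (34.6%) at an adjusted p under 0.05. Genes that met both criteria in the same direction numbered 2548 higher (22.4%) and 3623 lower (31.9%). The criterion and the fit use the same values, so neither supports the other. Most differences were small: the median gap was 0.18 among the genes set apart higher and 0.22 among those set apart lower. A gap above 0.5 was reached by 66 genes higher and 438 lower, and a gap above 1 by 2 and 8. The median log2 difference over all genes tested was -0.08. The split between directions depended on the scaling: after quantile normalization the fit called 3398 genes higher and 3033 lower.

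The rule on low values let 5 genes in through the 8276OV libraries alone. All 5 were set apart with higher values, as the rule forces them to be. At 10 genes set apart higher, these 5 included, every control value lay below 1. At 136 genes set apart lower every 8276OV value lay below 1. The filter favoured the direction of these genes as well. At the edge of the criterion stood Rpl32, a protein of the large ribosomal subunit, with 2869 to 2953 in 8276OV and at most 2869 in any control library. Ccpg1, an endoplasmic reticulum receptor for autophagy, fell just outside, with 15.4 at the lowest in 8276OV and 15.4 at the highest in the controls. On the lower side Dap3, a mitochondrial ribosomal protein, lay just inside with 47.6 to 53.5 in 8276OV and 53.5 to 57.1 in the controls. Ankle2 lay just outside with 10.5 to 11.4 in 8276OV and 11.4 to 13.6 in the controls.

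The control groups themselves differed widely. The 3 5NC and 3 3NC libraries did not overlap for 7899 of the 11360 genes (69.5%). Against 3NC alone, 8276OV was set apart at 4012 genes higher (35.3%) and 4874 lower (42.9%), and against 5NC alone at 3636 higher (32.0%) and 5177 lower (45.6%). Of the genes set apart from both, the 3NC mean was the nearer in 1247 of the higher and 1827 of the lower genes, and the 5NC mean in the other 1439 and 1912. The 8276KD libraries were also left behind by 2073 of the higher genes (77.2%) and 3022 of the lower genes (80.8%), in that all 3 8276OV values lay beyond all 9 other libraries.

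**Figure D1:**
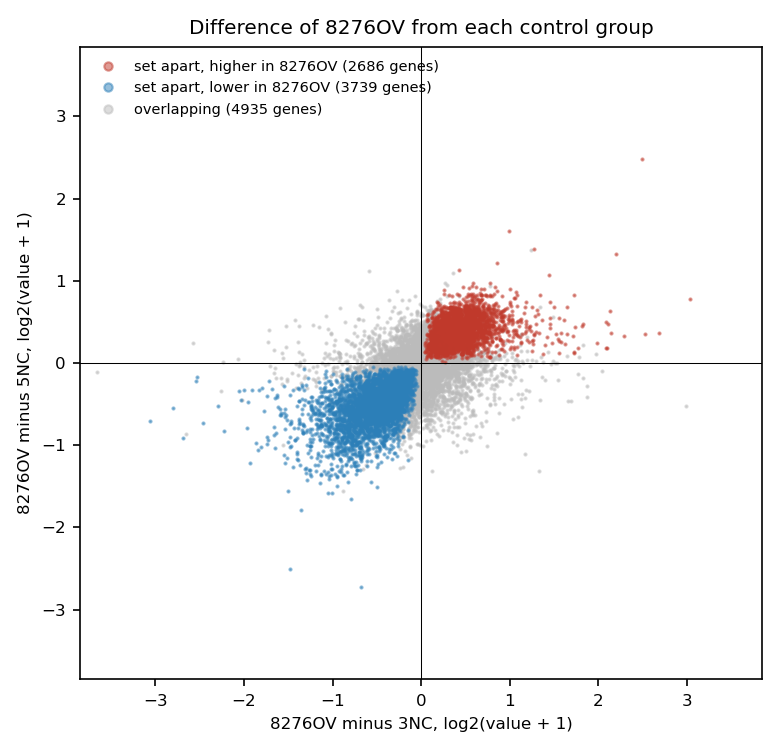
Difference of 8276OV from 3NC (horizontal) and from 5NC (vertical) on the log2(value + 1) scale, a point per gene tested. The 2686 red genes lie above all 6 control libraries and the 3739 blue genes below them, while the 4935 grey genes overlap with at least 1 control library; both axes share the 8276OV libraries.

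The direction of the difference followed base composition. Genes set apart higher had a median transcript GC content of 43.7%, those set apart lower 55.2%, and those not set apart 48.8%. In the tenth of genes with the lowest GC content, 64.6% were set apart higher and 1.16% lower. In the tenth with the highest GC content, 0.446% were set apart higher and 78.6% lower. Across genes the log2 difference and GC content had a Spearman's rho of -0.763, which is a description because genes share the same 9 libraries. The trend lay in the 8276OV libraries: the deviation of a gene from its mean changed by -0.46, -0.24 and -0.35 per 10 points of GC content in 8276OV, against 0.10 to 0.15 in 3NC and 0.15 to 0.20 in 5NC. The 8276OV slopes lay below those of both control groups, while the ranges of 3NC and 5NC overlapped. The 8276KD libraries stood at -0.04, 0.18 and -0.0019.

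A smooth GC trend was removed from each library as an alternative (the GC-corrected scale below). On this scale 1990 genes were set apart higher (17.8%) and 1887 lower (16.9%) of 11197 with a GC value, and the fit called 1574 higher (14.1%) and 1559 lower (13.9%). Of the 2645 higher genes with a GC value, 1335 stayed on the same side, 1274 came to overlap with the controls and 36 moved to the other side. Of the 3695 lower genes, 1280 stayed, 2276 came to overlap and 139 moved. In all, 1058 genes higher and 1054 lower were set apart and called on both scales. Sequencing chemistry, RNA quality and biology were not tested as sources of the trend, and the trend cannot be told apart from the 8276OV group, so values on the GC-corrected scale are given beside the results below.

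**Figure D2:**
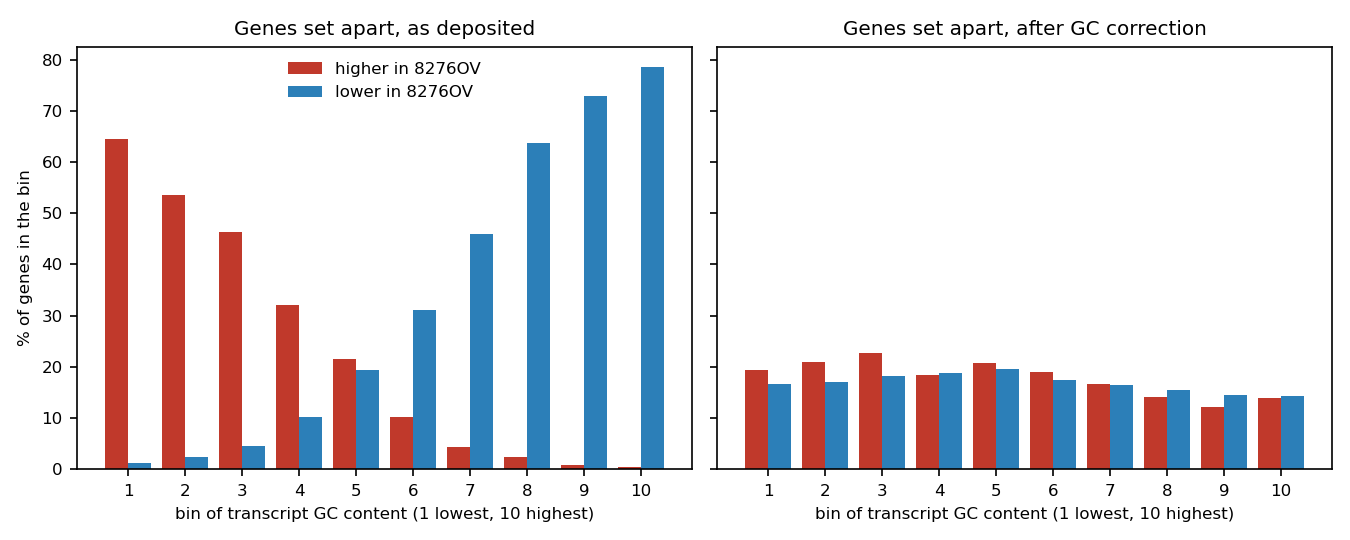
Percentage of genes set apart from all 6 control libraries, higher (red) or lower (blue) in 8276OV, in 10 bins of transcript GC content, as deposited (left) and after GC correction (right). As deposited, the higher share is 64.6% in the lowest bin and 0.446% in the highest, whereas after correction both directions lie between 12.1% and 22.6% in every bin.

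Among the genes with the 12 largest gaps upward were a secreted protein, a calcium-binding protein and membrane proteins. The gene with the largest gap lies on mm10 at chr5:87459493-87482258. This gene, Ugt2a2, a UDP-glucuronosyltransferase that conjugates small molecules, had 5.17, 4.84 and 3.96 in 8276OV, against 0 in all 3 3NC libraries and 0, 0 and 0.03 in 5NC. It was listed at 0 in all 3 8276KD libraries, so no fold is given. It is among the 5 genes tested only through the 8276OV libraries, so its direction was forced and no p is given. The gene shares 1182 exon bases on the same strand with Ugt2a1, which was listed at 1.5 in the third 8276OV library and at 0 in the other 11 libraries, so reads of the pair cannot be told apart here.

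Serpinb9b (chr13:33027414-33040588), a member of the serine protease inhibitor family, had 150.1, 149 and 151 in 8276OV, against 51.7 to 56.3 in 3NC and 70.6 to 71.8 in 5NC. The 8276OV libraries agree closely and lie far above every control. The log2 difference was 1.25 ± 0.11 (SE, limma adjusted p = 4.6e-05) and 1.03 ± 0.11 on the GC-corrected scale. S100a4, a calcium-binding protein of motile and mesenchymal cells, had 604, 549 and 615 in 8276OV, against 281 to 301 in 3NC and 305 to 320.1 in 5NC. Its difference of 0.95 ± 0.06 was nearly the same after GC correction, at 0.97 ± 0.05. Klf6, a zinc-finger transcription factor induced early after stimulation, had 85.5, 75.6 and 79.7 in 8276OV, against 30.6 to 31.6 in 3NC and 44.0 to 44.9 in 5NC. Here the 5NC libraries sit between 3NC and 8276OV without touching either. Klf6 rose by 1.09 ± 0.15 (limma adjusted p = 0.000261) and by 0.80 ± 0.15 after correction.

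Of 9 chemokines tested, which attract immune cells, Ccl2, Ccl7 and Ccl17 rose and none of the other 6 did. Over all genes tested 24.1% were called higher and 23.6% set apart higher, so this count is not read as a result about chemokines. Ccl17, a ligand of the receptor CCR4, had 24.5, 18.9 and 22.6 in 8276OV, against 7.61 to 10.5 in 3NC and 6.44 to 10.01 in 5NC. Its log2 difference was 1.33 ± 0.15 (limma adjusted p = 8.93e-05) and 1.52 ± 0.16 on the GC-corrected scale. Ccl2, the main attractant of monocytes through CCR2, had 383, 443 and 386 in 8276OV, against 215 to 248 in 3NC and 229 to 231 in 5NC, a difference of 0.80 ± 0.06 (limma adjusted p = 3.49e-05) that was 0.57 ± 0.07 after correction. The 8276KD libraries, at 312 to 350.4, also lay above the control range for Ccl2 but not for Ccl17, where they ran from 7.02 to 9.69. Ccl7, the neighbour of Ccl2 on chromosome 11, had 36.1, 34.3 and 39.0 in 8276OV, against 14.4 to 15.1 in 3NC and 22.1 to 22.6 in 5NC, a difference of 0.96 that was 0.70 after correction. In the list of NF-kB factors and chemokines, 4 of 26 tested genes were set apart higher (15.4%) and 9 lower (34.6%), against 23.6% and 32.9% of all genes tested. After GC correction 5 were called higher (19.2%) and 2 lower (7.69%), against 14.1% and 13.9% of all genes. The median difference was -0.26 as deposited and -0.03 after correction. The fourth gene set apart higher was Vcam1, an adhesion molecule for leukocytes, while Nfkb1 and Nfkbia, a subunit and an inhibitor of NF-kB, were among the genes set apart lower on both scales. These 3 names were chosen after their values were seen.

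Other genes with large upward gaps included a guidance receptor, a translational regulator and RNA-binding factors. Epha4, an ephrin receptor, had 5.62, 5.30 and 5.14 in 8276OV, against 1.78 to 2.23 in 3NC and 2.65 to 2.70 in 5NC, with 3.68 to 4.33 in 8276KD. Impact, an inhibitor of the kinase GCN2 that senses amino acid shortage, had 57.6, 50.7 and 53.5 in 8276OV, against 28.9 to 30.3 in 3NC and 27.0 to 28.4 in 5NC. C1d, a cofactor of the nuclear RNA exosome, had 117, 99.3 and 112 in 8276OV, against 47.4 to 56.0 in 3NC and 61.6 to 63.2 in 5NC. None of the 3 overlapped with a control library, and their differences of 0.92, 0.88 and 0.92 became 0.76, 0.59 and 0.53 on the GC-corrected scale. Thoc1, a subunit of the THO complex of messenger RNA export, had 45.6, 38.6 and 43.3 in 8276OV, against 22.0 to 24.4 in 3NC and 22.6 to 23.7 in 5NC, a difference of 0.83 that was 0.50 after correction. Its exons overlap 2169 bases of Usp14 on the opposite strand, and without a statement on strand its reads cannot be told apart from those of Usp14. Bad, Cebpb, Dusp5, Ftl1, Jund, Ndufa13 and Rpl18 below also share exon bases with a gene on the opposite strand. The same holds for Serpinb9b, Synm, Ino80b, Zbtb7b, Dapk3, Syt7, Ube2s, Fgfr1, Junb, Cebpz, Keap1, Bak1, Rps10, Rpl32, Atp5d, Uqcrb, Psma4 and Psmd3. It also holds for Orc6, Id4, Cd9, Ccnd2, Gfra1, Itga7, Dap3, Ankle2 and Ccpg1. Exon overlap was searched only for genes named by a rule. Synm, an intermediate filament protein, had 1.71, 2.65 and 2.0 in 8276OV, against 0.67 to 0.74 in 3NC and 0.32 to 0.35 in 5NC, a difference of 1.04 that was 1.20 after correction. In the libraries compared Synm reached the minimum value of 1 only in 8276OV, so the filter favoured its upward direction.

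Flrt3, a membrane protein of cell adhesion and fibroblast growth factor signalling, showed how far the size of a difference can hang on the control. It had 44.2, 41.6 and 44.3 in 8276OV, against 4.38 to 4.50 in 3NC and 23.3 to 26.2 in 5NC. The difference was 3.03 against 3NC and 0.78 against 5NC. The spread between the control groups left a pooled value of 1.91 ± 0.63 (limma adjusted p = 0.0251), which lost the call after GC correction (limma adjusted p = 0.0878), with the replicate block and when any 1 of the 3 8276OV libraries was left out. Aebp1, a secreted carboxypeptidase-like protein of the matrix, mirrored it downward with 2.78, 2.99 and 2.56 in 8276OV, against 4.79 to 5.17 in 3NC and 23.8 to 24.1 in 5NC. Its pooled difference of -1.70 ± 0.57 (limma adjusted p = 0.0276) was lost under the same alternatives, and on the GC-corrected scale it overlapped with a control library.

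Correction for GC content brought 2 further genes to the front. Atp13a2, a lysosomal polyamine transporter, had 131, 117 and 127 in 8276OV, against 74.0 to 80.4 in 3NC and 66.5 to 72.2 in 5NC. Its transcript is GC-rich at 62.5%, and the difference of 0.75 ± 0.07 became 1.47 ± 0.11 after correction (limma adjusted p = 0.000111). Ltb4r2, a receptor of the lipid mediator leukotriene B4, had 8.06, 8.19 and 7.51 in 8276OV, against 4.17 to 5.21 in 3NC and 4.42 to 4.96 in 5NC. Its difference was 0.65 ± 0.07 as deposited and 1.06 ± 0.07 after correction.

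**Figure D3:**
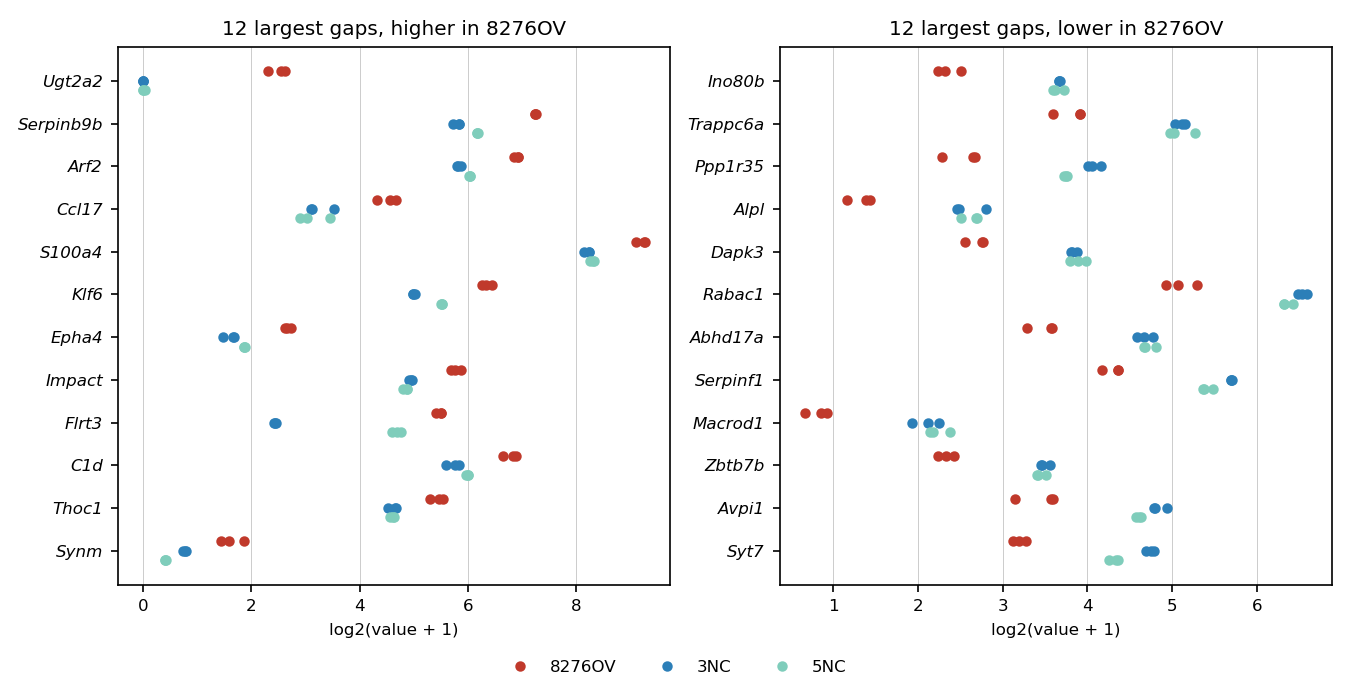
log2(value + 1) in each library for the 12 genes with the largest gap upward (left) and downward (right), with 8276OV in red above 3NC in blue and 5NC in light green for each gene. In every gene the 3 red points stand clear of the 6 control points, by a gap of 0.64 to 2.27 on the left and 0.97 to 1.08 on the right.

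The 12 genes with the largest gaps downward had varied roles. Ino80b (chr6:83121765-83125119), a subunit of the INO80 chromatin remodelling complex, had 3.71, 4.68 and 3.99 in 8276OV, against 11.6 to 11.8 in 3NC and 11 to 12.2 in 5NC. The control groups coincide for this gene, and its difference was -1.30 ± 0.07 (limma adjusted p = 2.66e-05). Zbtb7b, a zinc-finger repressor, had 3.69, 4.36 and 4.04 in 8276OV, against 9.98 to 10.7 in 3NC and 9.63 to 10.4 in 5NC. Trappc6a, a subunit of a vesicle tethering complex, had 11, 14.1 and 14.1 in 8276OV, against 31.8 to 34.6 in 3NC and 30.3 to 37.6 in 5NC. Rabac1, a receptor for Rab proteins in the Golgi, had 29.4, 38.3 and 32.7 in 8276OV, against 89.0 to 95.5 in 3NC and 78.8 to 85.3 in 5NC.

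Dapk3, a serine/threonine kinase that phosphorylates myosin light chain, had 4.89, 5.77 and 5.80 in 8276OV, against 13 to 13.7 in 3NC and 12.8 to 14.9 in 5NC. Abhd17a, an enzyme that removes palmitate from proteins, had 8.73, 10.8 and 11 in 8276OV, against 23.1 to 26.3 in 3NC and 24.4 to 27.2 in 5NC. These 6 transcripts hold 59.9% to 64.6% GC, and after GC correction their differences of -1.35 to -1.14 became -0.72 to -0.42, still set apart and called. Ppp1r35, Macrod1 and Avpi1 fell as well, with differences of -1.37, -1.35 and -1.29. For Ppp1r35, a protein of the centriole, the GC-corrected difference was -0.62 ± 0.16 and lost its call once the replicate block was added.

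Among the genes with the largest gaps, the 8276KD libraries of Alpl, Serpinf1, Syt7 and Arf2 lay outside the control range on the same side as 8276OV and nearer to it. Other genes did so too, Vegfa and Prdx1 below among them. Alpl, the alkaline phosphatase that is used as a stem cell stain, had 1.24, 1.61 and 1.70 in 8276OV and 1.20 to 1.75 in 8276KD, against 4.50 to 5.98 in 3NC and 4.69 to 5.47 in 5NC. Serpinf1, the secreted anti-angiogenic factor PEDF, had 17.0, 19.6 and 19.6 in 8276OV and 18.6 to 21.0 in 8276KD, against 50.9 to 51.1 in 3NC and 40.3 to 43.8 in 5NC. Syt7, a calcium sensor of exocytosis and lysosome fusion, had 7.72, 8.71 and 8.10 in 8276OV and 8.61 to 9.56 in 8276KD, against 24.9 to 26.6 in 3NC and 18.1 to 19.6 in 5NC. Overexpression and inhibition of lncRNA8276 thus lay on the same side of the controls for these 3 genes. Arf2, a small GTPase of vesicle budding, did so upward, with 120.5, 114 and 120.4 in 8276OV and 101 to 112 in 8276KD, against 54.4 to 57.2 in 3NC and 63.5 to 65.0 in 5NC. The difference between 8276OV and the controls was -1.28 ± 0.10 for Alpl, -1.26 ± 0.10 for Serpinf1, -1.33 ± 0.13 for Syt7 and 0.97 ± 0.07 for Arf2, and -0.80, -0.90, -0.96 and 1.09 after GC correction. All 4 were chosen for this comparison after their values were seen, and the 2 manipulations share their controls.

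Among the 8 genes with the largest downward gaps after GC correction were Pnkd, Ube2s, Acbd6 and Dlg4, whose transcripts hold 45.0% to 47.6% GC. Ube2s, the ubiquitin-conjugating enzyme that extends chains for the anaphase-promoting complex, had 103, 131 and 127 in 8276OV, against 218 to 235 in 3NC and 278 to 295 in 5NC. Its difference was -1.07 ± 0.12 as deposited and -1.26 ± 0.13 after correction. Dlg4, the scaffold PSD-95 of synapses, had 5.42, 6.18 and 5.67 in 8276OV, against 14.8 to 16.7 in 3NC and 10.3 to 11.9 in 5NC. Pnkd and Acbd6, an acyl-CoA-binding protein, fell by 1.07 and 0.94 as deposited and by 1.14 and 1.08 after correction. For these 4 genes the correction enlarged the difference, in contrast to the GC-rich genes above.

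The genes of glycolysis and of the response to low oxygen were the most one-sided of the lists described. Hypoxia-inducible factor (HIF) binds a short core motif, ACGTG or GCGTG, in its target genes and raises glucose uptake, glycolysis and lactate export. Of 39 listed genes 37 were tested, and 28 were set apart lower (75.7%), none higher. The limma fit called 25 of them lower and none higher, against 34.6% lower and 24.1% higher among all genes tested. The median log2 difference was -0.74, and it was -1.05 against 3NC, -0.39 against 5NC and -0.52 after GC correction. Against 3NC alone 36 members were set apart lower (97.3%) and 1 higher (2.7%), beside 42.9% and 35.3% of all genes. Against 5NC alone 28 were lower (75.7%) and 4 higher (10.8%), beside 45.6% and 32.0% of all genes. On the GC-corrected scale 20 genes were set apart lower (54.1%) and none higher, against 16.9% and 17.8% of all genes. The fit there called 11 lower (29.7%), against 13.9% of all genes. On both scales 18 members were set apart lower, as were 1280 of all 11197 genes with a GC value. Differences ranged from -1.59 for Slc16a3, the lactate exporter, to 0.26 for Hif1a, the oxygen-regulated subunit of HIF, which was not called. Car9 and Adm did not reach the minimum value. The list has a median transcript GC content of 51.9%, against 49.7% among all genes tested.

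The 4 members named by the size of their gap were an aldolase, an oxygen sensor, a kinase and a stress-induced inhibitor. Aldoc, an aldolase of glycolysis, had 4.10, 4.28 and 4.08 in 8276OV, against 21.9 to 24.3 in 3NC and 8.0 to 8.37 in 5NC. Egln1, the prolyl hydroxylase that marks HIF for degradation in the presence of oxygen, had 15.3, 15.2 and 15.1 in 8276OV, against 40.4 to 42.5 in 3NC and 25.3 to 28.4 in 5NC. In both genes the 5NC libraries lie between the other groups. Pdk1, which keeps pyruvate out of the mitochondria by inhibiting pyruvate dehydrogenase, had 2.51, 2.76 and 2.86 in 8276OV, against 8.06 to 8.81 in 3NC and 5.00 to 5.53 in 5NC. Its difference of -1.04 ± 0.18 (limma adjusted p = 0.000769) became -1.17 ± 0.18 after GC correction. Ddit4, an inhibitor of mTORC1 under stress, had 10.4, 9.19 and 8.71 in 8276OV, against 19.9 to 21.3 in 3NC and 16.0 to 18.2 in 5NC. Its difference of -0.93 ± 0.10 became -0.38 ± 0.12 after correction, where it overlapped with a control library. With the replicate block and GC correction together, Aldoc, Egln1 and Ddit4 lost their calls and Pdk1 kept it.

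Gapdh, a glycolytic enzyme often used to scale other measurements, had 1257, 1628 and 1413 in 8276OV, against 3545 to 3655 in 3NC and 2413 to 2662 in 5NC. The 8276OV libraries lie below all others, the 8276KD libraries included, which ran from 2142 to 2488. Its log2 difference was -1.09 (limma adjusted p = 0.000299) and -0.86 after GC correction. Vegfa, the growth factor of blood vessels, differed by -0.62 from 3NC and by -0.68 from 5NC, with 32.1, 33.5 and 33.3 in 8276OV, against 50.6 to 52.6 in 3NC and 50.1 to 57.6 in 5NC. The 8276KD libraries, at 33.8 to 40.2, also lay below both controls for Vegfa. Bnip3, a mitochondrial receptor for autophagy, showed the opposite, with 20.6, 17.5 and 18.6 in 8276OV, against 111 to 118 in 3NC and 20.8 to 22.3 in 5NC. Its pooled difference of -1.35 was not called (limma adjusted p = 0.103). Gapdh, Vegfa and Bnip3 were chosen after their values were seen.

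**Figure D4:**
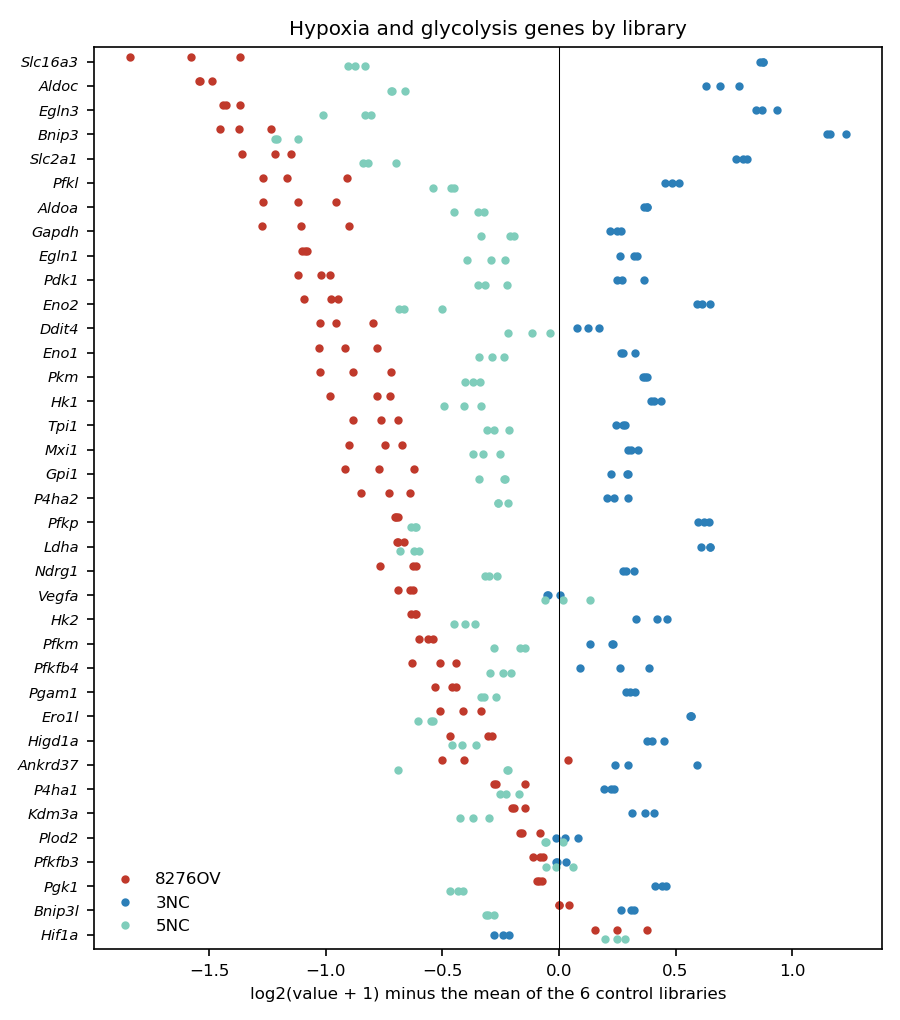
The 37 tested genes of hypoxia and glycolysis, ordered by log2 difference, with log2(value + 1) in each library minus the mean of the 6 control libraries; 8276OV in red stands above 3NC in blue and 5NC in light green within each gene. In 28 genes all red points lie left of every control point, and in most genes the 5NC points fall between those of 8276OV and 3NC.

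The sequences upstream of Egln1, Ddit4, Pdk1 and Aldoc are shown because these members have the largest gaps of the called members of the list. Their windows differ in the ACGTG form of the HIF core motif. Each is the 250 bases before the annotated start, 5′ to 3′ on the gene's strand, from RefSeq on GRCm38.p6. Capitals mark ACGTG or its reverse complement CACGT. The windows are chr8:124949255-124949504 on the minus strand for Egln1, chr10:59951771-59952020 on the minus strand for Ddit4, chr2:71872974-71873223 on the plus strand for Pdk1 and chr11:78322823-78323072 on the plus strand for Aldoc.
Egln1: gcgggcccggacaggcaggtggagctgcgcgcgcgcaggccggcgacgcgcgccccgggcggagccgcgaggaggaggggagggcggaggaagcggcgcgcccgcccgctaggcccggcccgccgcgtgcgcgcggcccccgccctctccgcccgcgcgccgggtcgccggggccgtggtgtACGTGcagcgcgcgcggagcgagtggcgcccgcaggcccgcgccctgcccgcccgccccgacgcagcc
Ddit4: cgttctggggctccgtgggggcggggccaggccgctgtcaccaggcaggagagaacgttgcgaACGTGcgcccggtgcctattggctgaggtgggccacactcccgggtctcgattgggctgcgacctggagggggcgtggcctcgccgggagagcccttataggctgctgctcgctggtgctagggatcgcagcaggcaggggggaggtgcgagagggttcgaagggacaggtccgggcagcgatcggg
Pdk1: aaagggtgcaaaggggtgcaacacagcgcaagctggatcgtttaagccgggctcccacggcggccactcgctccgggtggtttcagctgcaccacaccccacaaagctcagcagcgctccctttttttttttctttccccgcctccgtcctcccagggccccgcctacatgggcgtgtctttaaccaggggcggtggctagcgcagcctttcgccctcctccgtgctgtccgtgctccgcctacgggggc
Aldoc: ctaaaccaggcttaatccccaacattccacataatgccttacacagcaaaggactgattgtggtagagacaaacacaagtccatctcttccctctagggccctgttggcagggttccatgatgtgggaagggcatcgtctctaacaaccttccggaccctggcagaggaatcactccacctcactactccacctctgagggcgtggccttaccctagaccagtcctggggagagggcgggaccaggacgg
Egln1 and Ddit4 hold 1 match each, and these letters are not in the windows of Pdk1 and Aldoc. ACGTG was searched on both strands, where it also covers the E-box CACGTG. The other form of the core, GCGTG, was not searched, and it lies in all the windows shown, those of Pdk1 and Aldoc included. ACGTG was found in 11 of the 26 windows of hypoxia and glycolysis genes set apart lower (42.3%) and in 6 of the 8 windows of members not set apart (75.0%). Among all genes tested with a window, 2054 of 9139 held it (22.5%), as did 484 of 2148 set apart higher (22.5%) and 689 of 3061 set apart lower (22.5%).

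Components of the GDNF, fibroblast growth factor and ERK pathway split by member. Of 27 tested genes, 14 were set apart lower (51.9%) and 3 higher (11.1%). The limma fit called 11 lower (40.7%) and 3 higher (11.1%), against 34.6% and 24.1% of all genes tested, and the median difference was -0.46 as deposited and -0.24 after GC correction. At the receptor level, Fgfr1 had 1.19, 1.25 and 1.40 in 8276OV, against 2.85 to 3.79 in 3NC and 3.69 to 4.10 in 5NC, a difference of -1.03 ± 0.10 (limma adjusted p = 4.93e-05) and -0.61 ± 0.09 after correction. Hras and Nras, small GTPases that pass the signal on, went in different directions. Hras had 23.4, 27.5 and 25.5 in 8276OV, against 45.6 to 53.2 in 3NC and 46.7 to 51.3 in 5NC. Nras had 47.0, 44.0 and 47.7 in 8276OV, against 30.1 to 31.7 in 3NC and 29.5 to 31.2 in 5NC. The differences were -0.91 ± 0.07 for Hras and 0.59 ± 0.05 for Nras (limma adjusted p = 3.49e-05 and 3.62e-05), and both held after correction at -0.50 ± 0.06 and 0.31 ± 0.04. Hras has 55.2% GC and Nras 42.6%.

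Of the kinases below RAS, Map2k1, the ERK kinase MEK1, had 35.9, 36.3 and 36.7 in 8276OV, against 62.7 to 64.0 in 3NC and 47.2 to 50.9 in 5NC. Mapk3, the kinase ERK1, had 42.2, 54.8 and 52.5 in 8276OV, against 75.3 to 77.0 in 3NC and 86.0 to 89.9 in 5NC. Both were set apart and called lower on both scales, with differences of -0.61 and -0.71 as deposited and -0.47 and -0.18 after correction. Among the feedback inhibitors, Dusp5, a nuclear ERK phosphatase, had 2.90, 4.39 and 4.07 in 8276OV, against 8.51 to 8.62 in 3NC and 7.69 to 8.70 in 5NC. Spry2 and Spred2, inhibitors of RAS and RAF activation, were also set apart lower on both scales. Map2k1, Mapk3, Spry2 and Spred2 were chosen after their values were seen.

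Immediate early genes and the AP-1 factors, which respond to growth signals within minutes, had 10 of 24 tested genes set apart lower (41.7%) and 3 higher (12.5%). The shares of all genes were 32.9% and 23.6%, and the median of the list was -0.34. After GC correction 8 were set apart higher (33.3%) and 4 lower (16.7%), against 17.8% and 16.9% of all genes, and the median was -0.07. Junb, an AP-1 subunit, had 18, 22.9 and 20.1 in 8276OV, against 47.1 to 54.3 in 3NC and 40.6 to 42.9 in 5NC. Its difference was -1.14 ± 0.11 as deposited and -0.42 ± 0.12 after correction. Jund and Srf, a second subunit and a factor of serum-responsive genes, fell by 1.11 and 0.86 as deposited but lost their calls after correction (limma adjusted p = 0.0875 and 0.442). The transcripts of these 3 genes hold 62.6% to 67.1% GC.

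Of the C/EBP and KLF transcription factors, 5 of 17 tested genes were set apart higher (29.4%) and 7 lower (41.2%). The shares among all genes tested were 23.6% and 32.9%. After GC correction 5 were set apart higher (29.4%) and 4 lower (23.5%), against 17.8% and 16.9% of all genes. The median as deposited was 0.02, and it was 0.16 against 3NC and -0.21 against 5NC. Cebpb, a regulator of inflammation and differentiation, had 17.2, 25 and 20.6 in 8276OV, against 38.1 to 45.3 in 3NC and 51.4 to 80.6 in 5NC. The 5NC libraries scatter more than the others, and the difference of -1.23 ± 0.21 lost its call after correction (limma adjusted p = 0.0906). Cebpz, a nucleolar protein of ribosome assembly despite its name, rose by 0.63 ± 0.07, and by 0.38 ± 0.06 after correction, with 41.8, 41.1 and 43.5 in 8276OV, against 23.8 to 27.3 in 3NC and 27.8 to 28.6 in 5NC. Klf16 fell by 0.59 as deposited and stood at 0.07 after correction, without a call.

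The targets of NRF2, the factor that drives antioxidant genes, had 15 of 32 tested genes set apart lower (46.9%) and 3 higher (9.38%). Among all genes tested these shares were 32.9% and 23.6%, and the median of the list was -0.45. The median was -0.59 against 3NC, -0.17 against 5NC and -0.21 after GC correction. On that scale 7 were set apart lower (21.9%) and 4 higher (12.5%), against 16.9% and 17.8% of all genes. Ftl1, the ferritin light chain that stores iron, had 1244, 1418 and 1395 in 8276OV, against 2359 to 2421 in 3NC and 2386 to 2464 in 5NC. It fell by 0.84 ± 0.05 (limma adjusted p = 2.66e-05) and by 0.28 ± 0.04 after correction. Tkt, an enzyme of the pentose phosphate pathway, fell by 0.94 ± 0.13 and by 0.61 ± 0.14 after correction. Prdx1, a peroxidase, had 801, 725 and 799 in 8276OV, against 579.6 to 588 in 3NC and 414 to 448 in 5NC. It rose by 0.63 ± 0.13, but the 8276KD libraries reached 709 to 779.9, and the call was lost after correction (limma adjusted p = 0.0817). Keap1, the inhibitor of NRF2, fell by 0.51 and lost its call after correction at 0.05.

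The BCL2 family controls the release of cytochrome c from mitochondria. Of its 18 tested genes, 11 were set apart lower (61.1%) and 1 higher (5.56%), against 32.9% and 23.6% of all genes tested. The median of the family was -0.32. After GC correction 5 were set apart lower (27.8%) and 3 higher (16.7%), against 16.9% and 17.8% of all genes. The median was then -0.12. Bad, a sensor that promotes cell death by binding BCL2-like proteins, had 12.3, 15.0 and 15.6 in 8276OV, against 27.7 to 29.3 in 3NC and 31.2 to 32.4 in 5NC. It fell by 1.03 ± 0.08 (limma adjusted p = 3.55e-05) and by 0.52 ± 0.06 after correction. The pore-forming members differed between scales. Bak1 had 38.2, 50.5 and 42.6 in 8276OV, against 74.7 to 75.3 in 3NC and 71.2 to 72.9 in 5NC, and fell on both scales, by 0.74 and 0.23. Bax had 77.2, 93.1 and 85.3 in 8276OV, against 123 to 136 in 3NC and 160.3 to 165 in 5NC, a fall of 0.76 that was -0.01 after correction (limma adjusted p = 0.946).

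The large machines of protein synthesis, respiration and protein breakdown held genes in both directions. Of 77 cytosolic ribosomal proteins, 34 were set apart higher (44.2%) and 20 lower (26.0%), against 23.6% and 32.9% of all genes tested. The median was 0.14, and it was 0.05 against 3NC, 0.27 against 5NC and 0.19 after GC correction. The members with the largest gaps fell all the same. Rpl8 had 743, 898 and 865 in 8276OV, against 1547 to 1604 in 3NC and 1588 to 1696 in 5NC. Rpl18 had 809, 984 and 885 in 8276OV, against 1868 to 2059.9 in 3NC and 1613 to 1751 in 5NC. Rpl8, Rpl18, Rps10 and Rpl13 fell by 0.94, 1.03, 0.97 and 0.86 and remained called after correction, at -0.37, -0.78, -0.32 and -0.66. Ribosomal protein genes have many processed copies in the genome, and how the authors assigned reads shared with them is not given in the sources used here.

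Oxidative phosphorylation, the respiratory chain and ATP synthase of mitochondria, had 36 of 73 genes set apart higher (49.3%) and 23 lower (31.5%) as deposited. All genes tested had 23.6% higher and 32.9% lower. After GC correction 40 were set apart higher (54.8%) and 12 lower (16.4%), against 17.8% and 16.9% of all genes. The median was 0.17 as deposited, 0.21 after correction and 0.08 after quantile normalization. With quantile normalization 26 of the 73 genes were set apart higher and 27 lower, beside 3345 and 2904 of all 11360 genes. Uqcrb, a subunit of complex III, had 572, 554 and 556 in 8276OV, against 353.4 to 391.5 in 3NC and 345 to 373 in 5NC, a rise of 0.62 ± 0.05 and of 0.29 ± 0.05 after correction. Ndufa4 of the respiratory chain rose by 0.57 and by 0.23 after correction. Atp5d, the delta subunit of ATP synthase, fell by 0.95 ± 0.11 and by 0.34 ± 0.06, with 67.0, 93.4 and 82.3 in 8276OV, against 134 to 152 in 3NC and 163 to 169.8 in 5NC. Ndufa13 of complex I fell by 0.78 as deposited and lost its call after correction (limma adjusted p = 0.0698).

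Of 34 proteasome genes, 17 were set apart higher (50%) and 9 lower (26.5%) as deposited, against 23.6% and 32.9% of all genes tested. After correction 14 were set apart higher (41.2%) and 3 lower (8.82%), against 17.8% and 16.9% of all genes. The median was 0.16 on both scales and 0.03 after quantile normalization. Psma4, a subunit of the catalytic core, had 285, 270.0 and 295 in 8276OV, against 186 to 199 in 3NC and 164 to 169.6 in 5NC, and Psmd6 of the regulatory cap rose by 0.56. Psmd3 and Psmd8 of the same cap fell by 0.71 and 0.58. The lysosome list had 14 of 40 genes set apart higher (35.0%) and 9 lower (22.5%) as deposited, beside the same shares of all genes. After correction 12 of its genes were set apart higher (30%) and none lower, against 17.8% and 16.9% of all genes. Its median was 0.25 against 3NC and -0.13 against 5NC. Of 12 tested subunits of the proton pump that acidifies the lysosome, 7 were called higher and none lower, against 24.1% and 34.6% of all genes tested. After correction 6 were called higher and none lower, against 14.1% and 13.9%. This group of subunits is not among the lists described and was picked with earlier results of these data known. Atp6v0c, a membrane subunit, overlapped with the controls, with 314, 397 and 367 in 8276OV, against 373 to 389 in 3NC and 539 to 548 in 5NC. Atp6v0e, also of the membrane part, had 321, 334 and 311 in 8276OV, against 202 to 207 in 3NC and 201 to 207 in 5NC. The differences were 0.65 ± 0.04 for Atp6v0e, 0.63 ± 0.06 for Atp6v1c1 and 0.69 ± 0.08 for Atp6v1d, and 0.46, 0.41 and 0.41 after correction (limma adjusted p = 0.000251, 0.000694 and 0.00878). Tfeb, the transcription factor of lysosomal genes, fell by 0.71 as deposited and stood at 0.03 after correction without a call.

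Genes of the cell cycle were set apart in both directions. Of 48 genes of S phase and replication, 20 were set apart higher (41.7%) and 12 lower (25%), against 23.6% and 32.9% of all genes. The median of this list was 0.15, and 0.07 after GC correction. Pcna, the sliding clamp of DNA polymerase, had 757, 688 and 739 in 8276OV, against 456 to 477 in 3NC and 523 to 538 in 5NC. Orc6, a subunit of the origin recognition complex, rose by 0.71 ± 0.10 and Pcna by 0.54 ± 0.07, and both stayed called after correction at 0.54 and 0.36. Pold1, the catalytic subunit of DNA polymerase delta, fell by 0.77 and lost its call after correction (limma adjusted p = 0.45). In the list of G2 and M phase, 22 of 54 genes were set apart higher (40.7%) and 12 lower (22.2%), and the median was 0.15 as deposited and 0.01 on the GC-corrected scale. This list depended on the control. Compared with 5NC, 41 genes were set apart higher (75.9%) and 12 lower (22.2%), against 32.0% and 45.6% of all genes, with a median of 0.30. Compared with 3NC, 22 were set apart higher (40.7%) and 21 lower (38.9%), near the 35.3% and 42.9% of all genes, with a median of 0.02. Mad2l1, a protein of the spindle checkpoint, had 199, 167 and 185 in 8276OV, against 118 to 126 in 3NC and 121 to 125 in 5NC, and rose on both scales, by 0.57 ± 0.06 and 0.23 ± 0.04.

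Of 42 extracellular matrix genes tested, 12 were set apart lower (28.6%) and 2 higher (4.76%) as deposited, against 32.9% and 23.6% of all genes tested. After GC correction 2 were set apart lower (4.76%) and 9 higher (21.4%), against 16.9% and 17.8% of all genes, and the median was 0.13, against -0.21 as deposited. Against 3NC alone 18 were set apart in each direction (42.9%), beside 42.9% lower and 35.3% higher of all genes. Against 5NC alone 27 were lower (64.3%) and 5 higher (11.9%), beside 45.6% and 32.0% of all genes. Col8a1, a collagen of basement membranes, fell on both scales, by 0.75 and 0.86, with 14.7, 13 and 14.6 in 8276OV, against 29.9 to 30.6 in 3NC and 19.4 in all 3 5NC libraries. Bgn, the proteoglycan biglycan, fell by 0.45 and 0.30. The actin and contractile list was near the share of all genes as deposited, with 15 of 40 genes set apart lower (37.5%) and 9 higher (22.5%). After correction 8 were set apart lower (20.0%) and 16 higher (40%), against 16.9% and 17.8% of all genes. The median was -0.13 as deposited and 0.07 after correction. Myl9, a myosin light chain of contractile fibres, had 2.15, 2.84 and 2.83 in 8276OV, against 5.67 to 6.93 in 3NC and 5.65 to 6.75 in 5NC. Cnn2 and Capg, which bind actin, fell with it, by 1.05 and 1.04, and all 3 stayed called after correction at -0.55, -0.75 and -0.53.

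**Figure D5:**
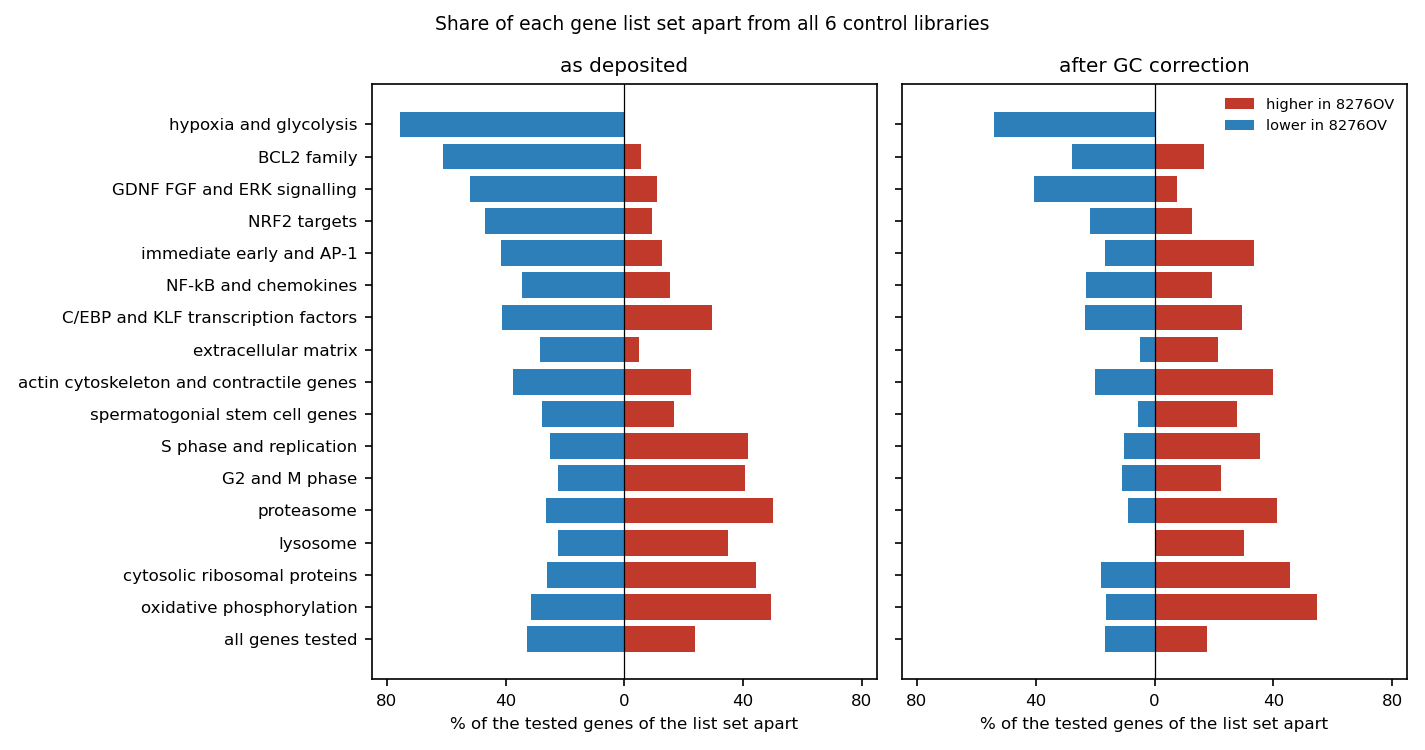
Percentage of the tested genes of each list that were set apart from all 6 control libraries, higher (red, to the right) or lower (blue, to the left) in 8276OV, as deposited (left panel) and after GC correction (right panel), with all genes tested as the bottom bar. Hypoxia and glycolysis has no gene on the higher side in either panel, and extracellular matrix changes from 12 lower and 2 higher to 2 lower and 9 higher of 42.

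Genes of spermatogonial stem cells were mostly low or not called. Of 18 tested, 3 were set apart higher (16.7%) and 5 lower (27.8%), against 23.6% and 32.9% of all genes, and the limma fit called 3 in each direction. After GC correction 5 were set apart higher (27.8%) and 1 lower (5.56%), against 17.8% and 16.9% of all genes. The fit there called 3 higher (16.7%) and 1 lower (5.56%), against 14.1% and 13.9%. Id4, an inhibitor of differentiation that marks the stem cell pool, had 0.82, 0.46 and 0.46 in 8276OV, against 1.33 to 1.82 in 3NC and 1.21 to 1.32 in 5NC. It fell by 0.62 ± 0.11 (limma adjusted p = 0.00101) and by 0.90 ± 0.10 after GC correction. Every 8276OV value of Id4 lies below the minimum of 1, so it passed the filter only through other libraries and its downward direction was favoured. Itgb1, a laminin receptor subunit, had 374, 343 and 359 in 8276OV, against 264 to 277 in 3NC and 288 to 296 in 5NC, a rise of 0.35 ± 0.05 that was 0.15 ± 0.04 after correction. Bmi1, a polycomb protein of self-renewal, rose by 0.63 ± 0.16 as deposited and lost its call after correction (limma adjusted p = 0.185).

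Etv5, a GDNF-induced factor of self-renewal, had 2.26, 2.82 and 2.26 in 8276OV, against 7.72 to 7.89 in 3NC and 2.70 to 3.52 in 5NC, and was not called (limma adjusted p = 0.0528). Cd9, a surface tetraspanin used to enrich the stem cells, lay between the controls at 81.2 to 86.4 in 8276OV, against 98.4 to 107 in 3NC and 59.0 to 65.7 in 5NC. Its direction is thus opposite against the 2 controls. Itga6, Epcam and Ccnd2 were not called either, at -0.24, -0.23 and -0.15. The GDNF receptors Gfra1 and Ret, the repressor Zbtb16 and the surface protein Thy1 reached at most 0.17 in the 9 libraries.

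The label of the cells was checked against marker lists. Of 21 germ cell markers 17 stayed below 1 in all 9 libraries, Ddx4, Dazl and Nanos2 below 0.1, and the list summed to 65.4 to 74.7 in 8276OV and 79.2 to 109 in the controls, mostly from Tex19.1. Of 18 mesothelial and surface epithelial markers 3 stayed below 1. This list summed to 1106 to 1222 in 8276OV and 886 to 1488 in the controls, with Upk3b at 457 to 536 in 8276OV and 233 to 804 in the controls, and Wt1 at 49.0 to 50.4 in 8276OV and 49.8 to 53.1 in the controls. The fibroblast list summed to 1067 to 1106 in 8276OV and 599 to 930.1 in the controls, with 3 of 9 markers below 1 and Thy1 below 0.1. It holds S100a4, given above, and Dcn, which had 136 to 149 in 8276OV and 20.9 to 115 in the controls. Of 6 tested members 2 were set apart higher (33.3%) and 1 lower (16.7%), against 23.6% and 32.9% of all genes. Col1a1, at 237 to 307 in 8276OV and 249 to 383 in the controls, overlapped with the controls. So did Col3a1, at 75.6 to 84.3 in 8276OV and 35.0 to 119.6 in the controls. Pdgfrb lay lower, at 0.67 to 0.77 in 8276OV and 0.81 to 1.34 in the controls. Most Sertoli (8 of 15), Leydig (4 of 5), macrophage (6 of 8) and endothelial (5 of 7) markers stayed below 1, as did 3 of 10 of peritubular myoid cells, and these lists summed to 82.0 or less in 8276OV and 96.9 or less in the controls. The part of these markers in the differences above was not tested.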

How the data were processed

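Total RNA of 12 libraries (4 groups of 3) was sequenced, and the authors deposited 1 table of 17576 genes with a value per gene and library. No header or label names the unit: the deposited values were read as FPKM from the values themselves, and TPM cannot be told apart from it. Reads were aligned to mm10, per the submitters' processing notes, and for the aligner, counting tool, annotation and strand setting the entry is "not given in the sources used here". Groups came from the sample titles. The members and gene lists were chosen with earlier results of these data known.

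Values were taken as log2(value + 1), and the 11360 genes with at least 1 in at least 3 of the 12 libraries were tested. The 3 8276OV libraries were compared with the 6 control libraries as 1 group in limma 3.58.1 (R 4.3.3; lmFit, then eBayes with trend and robust settings), two-sided, with Benjamini-Hochberg adjustment over all genes tested and a threshold of 0.05. Because the controls fall into 2 groups, their residuals are not independent, and a joint fit of 4 groups was an alternative. Set-apart genes were counted from the ranges. An exact permutation test of 3 against 6 libraries cannot give a p below 0.0238.

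For the GC-corrected scale, each library's deviation from the gene means was modelled by a natural spline (5 df) of GC content, taken from the longest transcript in GENCODE, and subtracted, for 11197 genes (98.6%). The other alternatives were either control alone, all 9 other libraries, a pseudocount of 0.1, no filter, a minimum of 5, quantile normalization, equal library sums, a replicate block, a gap of at least 0.25 and leaving out each library. The fits were tested on simulated data. The named genes were the 12 largest gaps each way, the 8 largest each way after GC correction, up to 4 per described list, the genes at the edge of the criterion and 13 spermatogonial genes; the first 3 kinds had to be set apart and called, with a mean of at least 2 on the higher side. The 16 lists described were chosen after their counts were seen. Promoter sequences are RefSeq's on GRCm38.p6. Figures were drawn with matplotlib 3.10.9.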

Additional observations from a re-analysis of the deposited data

Results flagged for a closer look

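In 3 of the 102 named genes tested, 1 of the 6 control libraries stood apart from the other 5 by more than the critical value of Dixon's test. That value is passed in about 1 of 20 groups drawn from 1 normal population. The controls fall in 2 groups that often do not overlap, so this rate need not hold here. Dusp5, the ERK phosphatase, had 7.69 in the second 5NC library and 8.50 to 8.70 in the other controls, against 2.90, 4.39 and 4.07 in 8276OV. Klf16 had 17.62 in the first 5NC library and 15.3 to 15.7 in the others. Ugt2a2 was listed at 0.03 in the third 5NC library and at 0 in the other controls, where any value above 0 would pass the critical value. In all 3 genes the 8276OV libraries lay beyond these control libraries too, which was fixed in advance because the genes were named as set apart.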

How the results depend on the processing

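Genes called numbered 3133 with GC correction and 1982 with the replicate block added, against 6670 as deposited; genes set apart numbered 3877 with GC correction, against 6425; genes both set apart and called numbered 3005, and 1954 with the block, against 6171. With a gap of at least 0.25, 2493 genes were set apart and 2492 also called. Called genes with a log2 change above 1 numbered 210, but 568 against 3NC, 475 with a pseudocount of 0.1, 42 with GC correction, 34 with block and GC correction, and 37 with GC correction against 5NC, a setting chosen after seeing the data. Leaving out 1 library gave 5093 to 6605 genes called, 6538 to 7400 set apart, 5077 to 6255 both, and 118 (without the first 8276OV library) to 293 with a change above 1. The replicate numbers do not pair the libraries: same-numbered libraries deviated with r of -0.18 to 0.09 over 9 pairs, and the replicate block gave 5768 genes called, 5590 both and 186 with a change above 1. Among 102 named genes, the direction turned under GC correction for Klf16 (0.065; block 0.065; 0.072 against 5NC, 0.058 against 3NC), Keap1 (0.048; block 0.048; 0.077 and 0.018), Tfeb (0.029; block 0.029; 0.10 against 3NC) and Agrn (0.027; block 0.027; 0.079 against 3NC). It turned under GC correction against 5NC only for Srf (0.022), Pold1 (0.043) and Itga7 (0.19), against 3NC only for Bax (0.10), and for Cd9 against 3NC (-0.27, and -0.43 with GC correction). The cause was not tested. Counts of reads were not used, so depth limits enter only through the minimum value.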

Other observations

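Of 29 heat shock and chaperone genes, 13 were set apart higher (44.8%) and 8 lower (27.6%), against 23.6% and 32.9% of all genes tested. After GC correction 8 were higher (27.6%) and 6 lower (20.7%), against 17.8% and 16.9% of all genes. The mitochondrial chaperonin subunits Hspd1 and Hspe1 rose by 0.58 and 0.63, and by 0.48 and 0.46 after GC correction. Of the cytosolic chaperonin that folds actin and tubulin, Cct2 and Cct6a rose by 0.33 and 0.46, and by 0.24 and 0.38 after correction. Hspa1b, the stress-induced HSP70, and its partner Dnajb1 fell by 1.36 and 0.70, and by 0.80 and 0.46 after correction, as did Hsf1, the heat shock factor, by 0.65 and 0.36.

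Of 21 selenoprotein and glutathione peroxidase genes, 4 were set apart higher (19.0%) and 9 lower (42.9%), against 23.6% and 32.9% of all genes. After GC correction 4 were set apart higher (19.0%) and 6 lower (28.6%), against 17.8% and 16.9% of all genes, so the higher share is near that of all genes. Gpx4, the peroxidase that protects membrane lipids, Selenom and Selenow fell by 1.14, 1.30 and 1.04, and by 0.50, 0.78 and 0.53 after GC correction. Selenot and Selenof rose by 0.60 and 0.50, and by 0.25 and 0.26 after correction. Tgfb1, a growth factor of the TGF-beta family, fell by 0.97, and by 0.73 after correction. All of these genes were set apart on both scales and were chosen after their values were seen.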
